A study of Mus musculus with 15 samples.

Results

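Imprinted genes are described here by chromosomal cluster, in mouse embryonic stem (ES) cells and in paraxial mesoderm cells made from them. The set was a list of 35 genes in 16 clusters, taken by name from general knowledge of mouse imprinting and written with earlier results of these data known. Of the 35, 33 had a probe set that carried their symbol alone, among 18193 genes with such a probe set on the array. A gene was tested when its signal lay above the array median on at least 3 of the 15 arrays, which 30 of the 35 met, among 12398 genes tested. Usp29, Zim1 and Calcr were below that filter, and Rtl1 and Dio3 had no probe set of their own here. Of the 30 tested genes, 17 are described as expressed from the paternal allele, 12 from the maternal allele, and Gnas from either allele depending on transcript and tissue.

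Imprinted genes are expressed mainly from the copy inherited from one parent. Their clusters are governed by imprinting control regions, where one parental copy is methylated in the germline and keeps that methylation through the erasure that follows fertilisation, in part through the zinc finger protein ZFP57 and its partner TRIM28. Many of the genes regulate the growth of the fetus and placenta, and many are active in embryonic mesoderm. Arrays sum both alleles, so imprinting itself was not measured and every value below is a total RNA level.

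The study examined paraxial mesoderm, the tissue that forms somites, made from ES cells in culture, and measured total RNA on Affymetrix arrays in 5 groups of 3 biological replicates. The ES cells were line E14 of strain 129P2 at day 0, unsorted, held with LIF and the inhibitors CHIRON99021 and PD0325901 on fibroblast feeders until a last feeder-free passage. CDL day 4 and RDL day 4 cells were also E14 and were sorted for the Msgn1-repV reporter, which marks presomitic mesoderm. CDL day 6 and RDL day 6 cells came from another line, CK35 of strain 129Sv, and were sorted for Pax3-GFP. All 4 differentiated groups were first given 10 ng/ml BMP4 for 2 days, followed by 0.5% DMSO with 0.1 µM LDN193189, a BMP receptor inhibitor, joined in CDL by 1 µM CHIRON99021, a GSK3 inhibitor that activates Wnt signalling, and in RDL by 10 ng/ml of the Wnt agonist Rspo3. Day 6 therefore differed from day 4 and from ES cells in line, strain and reporter as well as in time, and these cannot be told apart. Day 4 differed from ES cells in medium and sort as well as in time.

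Some genes were classed as having a promoter in a germline methylated region, with the class set per gene and not per window. Promoter windows are shown for genes of this class whose RNA changed in all 4 comparisons with ES cells. There were 8 such genes, and the table used here held windows of 6: Mest, Nnat, Nap1l5, Peg3 and Airn, which rose, and Plagl1, which fell. Sgce and Impact are named only. Mest had 3 windows, of which the first with the most copies of the motif below is shown. They are RefSeq reference sequence of build GRCm38.p6, read 5′ to 3′ in the direction of transcription, 300 bases each. The windows are chr6:30737800-30738099 on the plus strand for Mest, chr2:157559828-157560127 on the plus strand for Nnat, chr6:58907077-58907376 on the minus strand for Nap1l5, chr10:13090582-13090881 on the plus strand for Plagl1, chr7:6730370-6730669 on the minus strand for Peg3 and chr17:12741061-12741360 on the plus strand for Airn. Capitals mark TGCCGC, the core of the motif that ZFP57 recognises when its CpG is methylated, or its reverse complement GCGGCA.
Mest: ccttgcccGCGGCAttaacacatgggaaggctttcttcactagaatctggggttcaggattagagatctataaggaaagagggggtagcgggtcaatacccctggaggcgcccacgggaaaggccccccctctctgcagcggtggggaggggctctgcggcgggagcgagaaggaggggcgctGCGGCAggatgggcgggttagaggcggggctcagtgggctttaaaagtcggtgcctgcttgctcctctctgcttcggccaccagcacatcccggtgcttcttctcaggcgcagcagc
Nnat: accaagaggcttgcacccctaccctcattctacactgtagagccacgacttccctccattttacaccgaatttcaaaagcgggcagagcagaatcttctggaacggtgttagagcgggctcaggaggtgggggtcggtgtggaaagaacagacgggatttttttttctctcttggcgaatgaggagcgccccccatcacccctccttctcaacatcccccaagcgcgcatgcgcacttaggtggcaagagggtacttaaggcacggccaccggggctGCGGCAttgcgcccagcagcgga
Nap1l5: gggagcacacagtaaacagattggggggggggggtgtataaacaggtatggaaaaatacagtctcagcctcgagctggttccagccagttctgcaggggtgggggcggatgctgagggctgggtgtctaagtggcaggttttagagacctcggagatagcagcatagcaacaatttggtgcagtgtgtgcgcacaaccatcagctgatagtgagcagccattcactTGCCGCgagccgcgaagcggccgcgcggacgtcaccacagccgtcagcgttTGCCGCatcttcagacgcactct
Plagl1: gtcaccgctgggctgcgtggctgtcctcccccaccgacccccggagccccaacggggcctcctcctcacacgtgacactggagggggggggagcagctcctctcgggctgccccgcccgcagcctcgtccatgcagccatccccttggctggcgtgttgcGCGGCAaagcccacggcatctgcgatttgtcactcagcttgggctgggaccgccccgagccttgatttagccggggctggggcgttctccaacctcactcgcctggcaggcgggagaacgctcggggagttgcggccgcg
Peg3: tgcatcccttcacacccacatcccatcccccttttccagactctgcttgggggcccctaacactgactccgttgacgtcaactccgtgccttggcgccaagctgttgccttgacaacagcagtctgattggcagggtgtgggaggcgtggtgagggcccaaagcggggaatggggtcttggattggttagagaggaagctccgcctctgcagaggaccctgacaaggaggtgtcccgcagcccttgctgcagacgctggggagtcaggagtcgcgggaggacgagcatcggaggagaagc
Airn: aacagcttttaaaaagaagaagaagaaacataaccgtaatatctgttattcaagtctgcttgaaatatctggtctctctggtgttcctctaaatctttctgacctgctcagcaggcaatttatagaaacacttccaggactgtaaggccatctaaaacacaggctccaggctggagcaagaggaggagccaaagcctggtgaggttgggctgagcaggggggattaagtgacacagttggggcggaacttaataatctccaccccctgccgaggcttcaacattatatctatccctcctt
Mest and Nap1l5 held 2 copies each, Nnat and Plagl1 held 1 copy each, and Peg3 and Airn held none. By gene, these letters were present on either strand in a window of 12 of the 30 imprinted genes that matched (40%) and of 13.1% of 27025 genes of the whole table. Among the imprinted genes of the methylated promoter class it was 6 of 9 genes, and among the others 6 of 21. Over windows it was 28.3% of 46 against 11.6% of 32851, where some windows overlap: 2 windows of Mest start 3 bases apart, and 2 of Gnas share 281 bases. The imprinted windows also had more CpG sites, with a median of 13 against 7 over all promoters. The median was 11 in windows of the methylated promoter class, of which 50% held the motif. It was 14 in the other imprinted windows, of which 18.8% held it. Gnas and Zdbf2, with several windows each, were counted with the others. Any window of theirs in a germline methylated region would be misplaced in these shares. The motif has a CpG inside it, and the part of CpG density in these shares was not tested. No binding or methylation was measured in these cells. The windows of Peg3 and Usp29, which are transcribed in opposite directions, shared 263 bases.

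Array medians lay between 29.4 and 31.2 signal units. Precision is bounded by having 3 arrays a group. Each array correlated with its group mates at a mean of 0.978 to 0.997. CDL day 4 replicate 1 stood apart toward ES cells. In a set of 35 genes with strong ES signal and weak signal in its mates, it kept a median of 16.8% of the ES signal. The 9 arrays of the other differentiated groups kept -0.13% to 0.241%, each in a gene set chosen by its own mates. For CDL day 4 replicates 2 and 3 no gene met the rule. The sum over 10 pluripotency markers was 13583 on CDL day 4 replicate 1, against 3037 and 2889 on its mates. The lowest of those correlations (0.978) was that of RDL day 6 replicate 1, which also had the highest actin 3′ to 5′ ratio (1.90). Calls of the imprinted genes that changed when either array was left out are named beside the result.

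Most of the imprinted genes were higher in differentiated cells than in ES cells, and few were lower. At an adjusted p under 0.05, 19 of the 30 rose and 3 fell in CDL day 4 cells, beside 56.2% of all genes called in either direction, 26.6% higher and 29.6% lower. In RDL day 4 cells 22 rose and 2 fell, beside 57.1% of all genes called, 27.6% higher and 29.5% lower. In CDL day 6 cells 23 rose and 3 fell, beside 61.1%, of which 27.8% higher and 33.3% lower. In RDL day 6 cells 24 rose and 3 fell, beside 61.6%, of which 28.3% higher and 33.3% lower. The share called was 73.3%, 80%, 86.7% and 90% of the tested imprinted genes in these 4 comparisons. Dlk1, Peg10, Asb4, Nap1l5, Nnat and Airn were above the array median on 0 of the ES arrays and passed the filter through differentiated groups alone, and Ascl2 passed it through the ES arrays and CDL day 4 replicate 1. Such genes had to differ, so these counts describe the genes that passed and are no test of the list. Without the filter, over 33 genes, 20, 22, 24 and 26 rose and 2, 2, 3 and 3 fell in the same order. The shares over all genes were not counted without the filter, so these counts have no background beside them. A second list of 48 imprinted genes, given at the end, split near evenly.

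The median difference of the 30 genes from ES cells was 1.18 on the log2 scale in CDL day 4, 1.32 in RDL day 4, 1.04 in CDL day 6 and 1.38 in RDL day 6 cells. Over all genes tested it lay between -0.04 and -0.01. The 30 include the genes that passed the filter through differentiated groups alone, so these medians are no test of the list either. The 4 comparisons share the same 3 ES arrays, so they are not independent. Log2 values here and below are of signal plus a constant of 12.6, which understates the change of dim genes. In these bulk samples a change in the number of cells that make an RNA and a change in the RNA made per cell cannot be told apart.

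**Figure D1:**
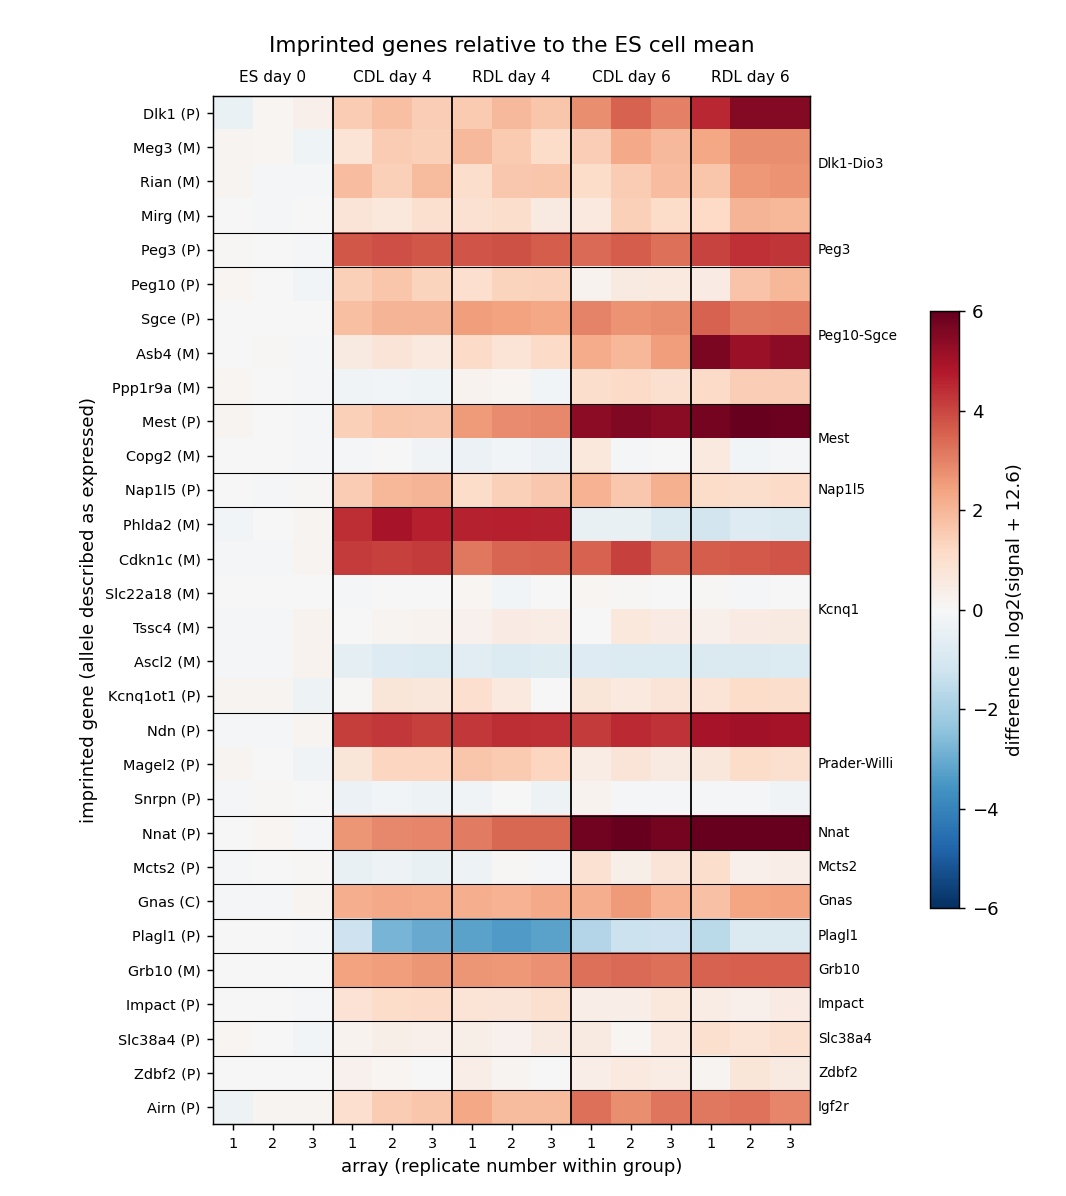
Each row is a tested imprinted gene, with its cluster at the right and P, M or C for paternal, maternal or complex expression, and each column is 1 of the 15 arrays; colour is log2(signal + 12.6) minus the mean of the 3 ES arrays. Phlda2 is high at day 4 alone, Mest and Nnat are highest at day 6, and Plagl1 is the gene with the deepest decrease in the 4 differentiated groups.

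Genes of both parental classes rose more often than they fell. Of the 17 tested genes described as paternally expressed, 11 rose and 2 fell in CDL day 4, 13 rose and 1 fell in RDL day 4, 14 rose and 1 fell in CDL day 6, and 15 rose and 1 fell in RDL day 6 cells. Of the 12 described as maternally expressed, 7 rose and 1 fell in CDL day 4, 8 rose and 1 fell in RDL day 4, and 8 rose and 2 fell in both day 6 groups. The median difference of the paternal class was 1.39 in both day 4 groups, 0.69 in CDL day 6 and 1.11 in RDL day 6 cells, and that of the maternal class was 0.71, 0.95, 1.04 and 1.55 in the same order. Of all genes tested, 26.6% to 28.3% were higher and 29.5% to 33.3% lower in these comparisons. Dlk1, Peg10, Nap1l5, Nnat and Airn of the paternal class and Asb4 of the maternal class passed the filter through differentiated groups alone. They had to be higher in some of those groups, and Ascl2 of the maternal class had to be lower. The class counts and medians are therefore no test of either class, and the difference between the classes was not tested.

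**Figure D2:**
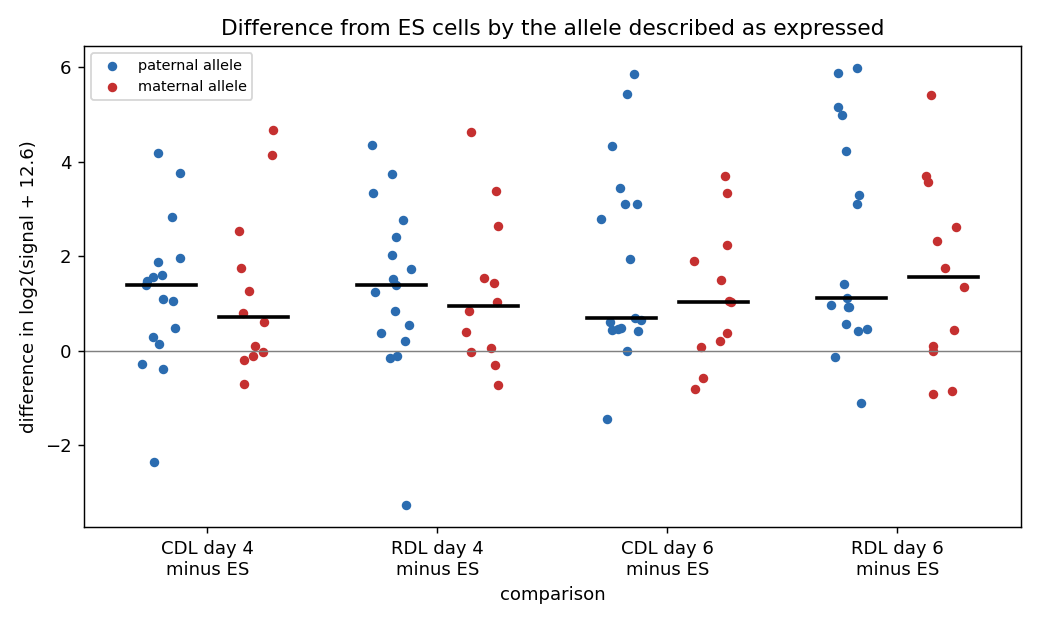
Points are the 17 paternally and 12 maternally expressed genes, the vertical axis is each gene's difference from ES cells in log2(signal + 12.6), and black bars are class medians. Both classes lie mostly above 0 in the 4 comparisons and overlap widely, with the highest medians at 1.39 for the paternal class and 1.55 for the maternal class.

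In the Dlk1-Dio3 cluster the paternal gene Dlk1 and the 3 maternal noncoding RNAs were all higher in the 4 differentiated groups than in ES cells. Dlk1 encodes a transmembrane protein with EGF repeats that holds back differentiation of several cell types. Its signal was 12.3, 23.5 and 28.1 in ES cells, 82.9, 105 and 80.6 in CDL day 4, 87.3, 117 and 92.3 in RDL day 4, 216, 374 and 255 in CDL day 6 and 741, 1511 and 1476 in RDL day 6 cells. No differentiated array overlapped the ES arrays, and the RDL day 6 arrays lay above the rest. The log2 difference from ES cells was 1.61 ± 0.26 (SE) in CDL day 4, 1.74 ± 0.26 in RDL day 4, 3.11 ± 0.26 in CDL day 6 and 5.17 ± 0.26 in RDL day 6 cells, where the adjusted p was 9.69e-11.

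Meg3, a long noncoding RNA, was already well expressed in ES cells at 1021, 981 and 745 signal units. It reached 1596, 2616 and 2491 in CDL day 4, 3569, 2745 and 1980 in RDL day 4, 2553, 4419 and 3542 in CDL day 6 and 4553, 6340 and 6297 in RDL day 6 cells. The ES arrays lay below all others and the RDL day 6 arrays above, while the other groups overlapped. The difference from ES cells ran from 1.26 ± 0.24 in CDL day 4 to 2.63 ± 0.24 in RDL day 6 cells. Rian, which hosts C/D box snoRNAs, differed from ES cells by 1.75 ± 0.26 in CDL day 4, 1.44 ± 0.26 in RDL day 4, 1.5 ± 0.26 in CDL day 6 and 2.32 ± 0.26 in RDL day 6 cells. Mirg, which hosts miRNAs, differed by 0.80, 0.85, 1.03 and 1.75 in the same order, each ± 0.22. All 8 of these Rian and Mirg differences passed the test.

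In both day 6 groups the array numbered 1 was the lowest of its 3 for all 4 genes of the cluster. The same held for 11 of the 30 tested imprinted genes (36.7%) and for 21.2% of all genes tested. For Rian the RDL day 6 arrays read 301, 602 and 638, and for Mirg 302, 548 and 523, with replicate 1 far below its mates for both genes.

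**Figure D3:**
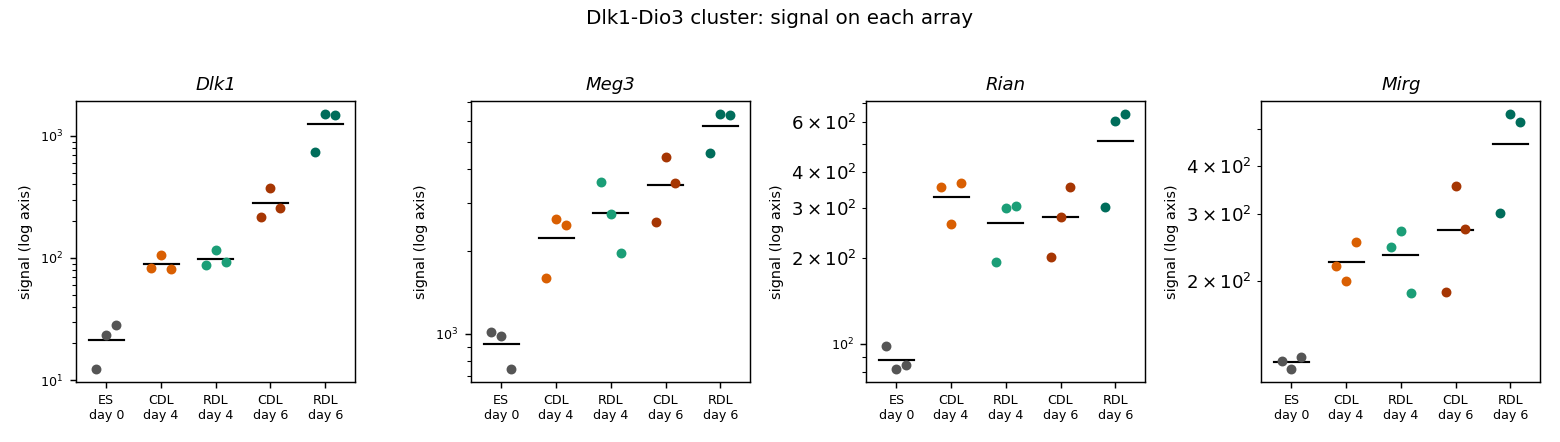
Signal on a log axis for Dlk1, Meg3, Rian and Mirg in the 5 groups, with 1 point per array in replicate order and a bar at the group mean. All 4 genes are lowest in ES cells and have their highest mean in RDL day 6 cells, where replicate 1 lies below replicates 2 and 3.

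Peg3, a large zinc finger protein of the Peg3 cluster, rose strongly in all 4 differentiated groups. It was at 378, 364 and 338 in ES cells, 4836, 5368 and 4921 in CDL day 4, 5055, 5277 and 4680 in RDL day 4, 3885, 4561 and 3682 in CDL day 6 and 6110, 7646 and 7312 in RDL day 6 cells. The groups at day 4 overlapped, and the RDL day 6 arrays lay above every other array. The difference from ES cells was 3.76 ± 0.09 in CDL day 4, 3.75 ± 0.09 in RDL day 4, 3.44 ± 0.09 in CDL day 6 and 4.23 ± 0.09 in RDL day 6 cells. Its neighbours stayed dim on all arrays. Usp29, a ubiquitin-specific protease, reached at most 29.6, and Zim1, a zinc finger gene, at most 30.6, in both cases in RDL day 6 cells and close to the array medians.

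In the Peg10-Sgce cluster, genes differed in their course. Sgce, which encodes epsilon-sarcoglycan, was at 42.8, 42.1 and 41.8 in ES cells and at means of 203 ± 20.2 in CDL day 4, 280 ± 19 in RDL day 4, 371 ± 39.4 in CDL day 6 and 530 ± 80.4 in RDL day 6 cells (SD, n = 3 each). No 2 of these groups overlapped. Peg10, a retrotransposon-derived gene needed for the placenta that starts beside Sgce on the other strand, read 14.5, 12.7 and 9.23 in ES cells, 53.6, 64.3 and 50.1 in CDL day 4, 37.0, 50.2 and 52.7 in RDL day 4, 15.5, 22.7 and 24.8 in CDL day 6 and 22.0, 69.1 and 86.8 in RDL day 6 cells. Peg10 was low in ES and CDL day 6 cells and higher in the other groups, with RDL day 6 replicate 1 down among the CDL day 6 arrays. Its difference from ES cells passed the test in CDL day 4 (1.47 ± 0.27), RDL day 4 (1.25 ± 0.27) and RDL day 6 (1.41 ± 0.27), and was 0.44 ± 0.27 in CDL day 6 cells (adjusted p = 0.178). Its levels are dim throughout.

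Asb4, an ankyrin repeat and SOCS box protein at the maternal side of the cluster, was at 14.6, 16 and 13.5 in ES cells, 26.6, 34.0 and 27.7 in CDL day 4, 48.7, 35.7 and 47.7 in RDL day 4, 115, 94.2 and 141 in CDL day 6 and 1371, 976 and 1121 in RDL day 6 cells. The RDL day 6 arrays stood far above all others, and the 5 groups did not overlap. The difference from ES cells was 0.62 ± 0.15 in CDL day 4, 1.04 ± 0.15 in RDL day 4, 2.23 ± 0.15 in CDL day 6 and 5.41 ± 0.15 in RDL day 6 cells. Ppp1r9a, the actin-binding protein neurabin, passed the test against ES cells at day 6, by 1.05 ± 0.12 in CDL and 1.36 ± 0.12 in RDL, against -0.19 and 0.06 at day 4, which did not pass. Calcr, the calcitonin receptor, stayed between 6.45 and 8.30 on all arrays.

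Mest, a protein of the hydrolase family named for its expression in mesoderm, had the largest difference of the paternal genes after Nnat in both day 6 groups. Its signal was 106, 89.5 and 84.1 in ES cells, 267, 318 and 315 in CDL day 4, 607, 735 and 775 in RDL day 4, 4286, 4913 and 4509 in CDL day 6 and 5580, 6676 and 6291 in RDL day 6 cells. The 5 groups did not overlap. The difference from ES cells was 1.57 ± 0.12 in CDL day 4, 2.76 ± 0.12 in RDL day 4, 5.44 ± 0.12 in CDL day 6 and 5.88 ± 0.12 in RDL day 6 cells. Copg2, a coatomer subunit in the same cluster, was at 217 ± 8.63 in ES cells and between 165 and 343 on the other arrays, and no difference of it passed. Nap1l5, a retrogene in an intron of Herc3, rose by 1.87 in CDL day 4, 1.39 in RDL day 4, 1.95 in CDL day 6 and 1.11 in RDL day 6 cells, each ± 0.17.

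The Kcnq1 cluster held the sharpest contrast among the maternal genes. Phlda2, a PH-domain protein that limits placental growth, was at 61.1, 73.2 and 80.6 in ES cells, 1807, 2542 and 2086 in CDL day 4, 2037, 2138 and 2072 in RDL day 4, 49.7, 49.5 and 33.4 in CDL day 6 and 26.8, 36.5 and 33.1 in RDL day 6 cells. It was high at day 4 alone, and both day 6 groups lay below the ES arrays. The difference from ES cells was 4.67 ± 0.15 in CDL day 4 and 4.64 ± 0.15 in RDL day 4, against -0.58 ± 0.15 in CDL day 6 (adjusted p = 0.00304) and -0.91 ± 0.15 in RDL day 6 cells (adjusted p = 5.6e-05).

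Cdkn1c, the cyclin-dependent kinase inhibitor p57, was by contrast high in all differentiated groups. It read 31.4, 31.4 and 40.5 in ES cells, 839, 783 and 835 in CDL day 4, 407, 510 and 531 in RDL day 4, 527, 779 and 515 in CDL day 6 and 569, 585 and 632 in RDL day 6 cells, differences of 4.15, 3.39, 3.70 and 3.70 from ES cells, each ± 0.15. Ascl2, a basic helix-loop-helix factor of trophoblast and a Wnt target, read 49.1, 46.2 and 61.1 in ES cells and between 22.2 and 32.2 in the 4 other groups, with decreases of 0.71 to 0.86. It is dim, and having passed the filter through the ES arrays and CDL day 4 replicate 1 it had to be lower elsewhere. Slc22a18, a transporter, did not pass in any comparison, with group means between 56.2 and 61.3.

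Kcnq1ot1, the paternal noncoding RNA that silences neighbours of the cluster in cis, rose by 0.55 ± 0.22 in RDL day 4, 0.69 ± 0.22 in CDL day 6 and 0.98 ± 0.22 in RDL day 6 cells, and its 0.49 ± 0.22 in CDL day 4 did not pass (adjusted p = 0.0733). Without CDL day 4 replicate 1 that last difference was 0.70 and passed. The RDL day 4 call was lost when RDL day 4 replicate 1 was left out, where the difference was 0.31, as well as without RDL day 4 replicate 2 or without any 1 of the ES arrays. The CDL day 6 call was lost without ES replicate 3 (0.54). Tssc4, a factor in assembly of the U5 snRNP, rose by between 0.38 and 0.45 in the same 3 comparisons, and each call was lost when ES replicate 1 or ES replicate 2, among others, was left out.

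The sum of trophoblast markers was highest in the day 4 groups, the groups in which Phlda2 was high. Cdkn1c and Peg10 were not confined to day 4, with means of 595 and 59.3 in RDL day 6 against 483 and 46.6 in RDL day 4 cells. The sum over all 7 markers of the list was 5160 to 5725 in CDL day 4, 3989 to 5354 in RDL day 4, 854 to 1120 in CDL day 6 and 1509 to 1795 in RDL day 6 cells, against 761 to 829 in ES cells. Most of it came from the keratins Krt8 and Krt18, which many epithelia express, with means of 3977 and 901 in CDL day 4 cells, and from Cdx2, also a gene of the posterior embryo. The defining trophoblast genes Elf5, Gata3 and Hand1 did not exceed means of 13.8, 18 and 78.8 in any group, and Tfap2c was at 42.0 in CDL day 4 and 17.1 in RDL day 4 cells, against 451 in ES cells. Their part in the imprinted differences was not tested.

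Of the Prader-Willi genes, the MAGE family member Ndn (necdin) rose most. It was at 56.1, 58.1 and 69.0 in ES cells, 1286, 1394 and 1269 in CDL day 4, 1394, 1565 and 1520 in RDL day 4, 1338, 1603 and 1483 in CDL day 6 and 2225, 2382 and 2351 in RDL day 6 cells. The RDL day 6 arrays were above all the others, and the remaining differentiated groups overlapped. The differences from ES cells were 4.18, 4.36, 4.34 and 4.99 in CDL day 4, RDL day 4, CDL day 6 and RDL day 6 cells, each ± 0.09. Magel2, of the same family, was highest at day 4, with differences of 1.10 in CDL and 1.52 in RDL cells, against 0.60 and 0.92 at day 6, each ± 0.16. Snrpn, the splicing protein SmN, was represented by a dim probe set with group means between 47.6 and 60.4. Its difference of -0.28 ± 0.11 in CDL day 4 cells (adjusted p = 0.0405) was lost when CDL day 4 replicate 1 or 3 or ES replicate 2 or 3 was left out. Brighter probe sets that carry the symbols Snurf and Snrpn together were not tested, and the brightest had group means between 1212 and 1473.

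Nnat, neuronatin, a small membrane protein and the sole member of its cluster here, had the largest increase of the 30 genes in both day 6 groups. It read 11, 13.3 and 9.59 in ES cells, 137, 163 and 172 in CDL day 4, 194, 245 and 245 in RDL day 4, 1296, 1540 and 1256 in CDL day 6 and 1511, 1484 and 1528 in RDL day 6 cells. Only the day 6 groups overlapped each other. The differences from ES cells were 2.83, 3.33, 5.85 and 5.99 in CDL day 4, RDL day 4, CDL day 6 and RDL day 6 cells, each ± 0.12. Mcts2, a retrogene in an intron of H13, rose by 0.66 ± 0.17 in CDL day 6 and 0.57 ± 0.17 in RDL day 6 cells, the last 0.34 without RDL day 6 replicate 1. The Mcts2 probe set may also detect its near-identical parent gene Mcts1, so its value is uncertain. Gnas, the stimulatory G protein alpha subunit, rose by between 2.18 and 2.27 in all 4 groups with its brightest probe set, and by between 0.80 and 0.95 with the mean of its probe sets.

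Plagl1, the zinc finger factor also called Zac1, had the largest decrease of the set. It was at 2702, 2721 and 2521 in ES cells, 1099, 371 and 312 in CDL day 4, 275, 243 and 273 in RDL day 4, 775, 1059 and 1095 in CDL day 6 and 865, 1454 and 1429 in RDL day 6 cells. ES cells were above all other arrays, RDL day 4 cells were lowest, and CDL day 4 replicate 1, the array that kept ES signal, lay far above its mates. The difference from ES cells was -2.36 ± 0.33 in CDL day 4, -3.27 ± 0.33 in RDL day 4, -1.44 ± 0.33 in CDL day 6 and -1.11 ± 0.33 in RDL day 6 cells. Without CDL day 4 replicate 1 the CDL day 4 difference was -2.91.

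Grb10, an adaptor that restrains insulin and IGF signalling, was at 345, 358 and 357 in ES cells, 1948, 2079 and 2306 in CDL day 4, 2294, 2181 and 2397 in RDL day 4, 3637, 3871 and 3592 in CDL day 6 and 4224, 4433 and 4355 in RDL day 6 cells. The day 4 groups overlapped each other and lay between ES cells and the day 6 groups. The differences from ES cells were 2.53, 2.65, 3.34 and 3.57, each ± 0.07. One of its other probe sets disagreed, with -0.32 ± 0.11 in CDL day 4 cells (adjusted p = 0.0243). Airn, the noncoding RNA of the Igf2r cluster, rose by 1.39 in CDL day 4, 2.03 in RDL day 4, 3.10 in CDL day 6 and 3.11 in RDL day 6 cells, each ± 0.19.

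Impact, an inhibitor of GCN2 activation, rose in all 4 groups and more at day 4, by 1.05 in CDL and 0.85 in RDL cells, against 0.49 and 0.41 at day 6, each ± 0.10. Slc38a4, an amino acid transporter, rose by 0.38 in RDL day 4, 0.42 in CDL day 6 and 0.92 in RDL day 6 cells, each ± 0.12, but its second probe set differed by 0.14 ± 0.14 in RDL day 6 cells (adjusted p = 0.406). The RDL day 4 call of Slc38a4 was also lost without RDL day 4 replicate 3 or ES replicate 3. Zdbf2, a zinc finger protein, rose by 0.47 ± 0.13 in both day 6 groups and did not pass at day 4.

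The size of many of these differences depended on the probe set taken for a gene. With the mean of a gene's probe sets in place of the brightest one, 42 of the 99 called differences from ES cells, of 12 genes, were smaller by over 1.5 times on the log2 scale, 0 were larger, and 2 lost their call, both of Slc38a4. In RDL day 6 cells Dlk1 then differed by 2.95, Peg3 by 2.80, Ndn by 3.08, Grb10 by 2.24 and Airn by 1.69. Plagl1 differed by -1.62 in RDL day 4 cells. Each of these kept its direction and its call. With a constant of 64 added before taking log2, 30 of the 99 were smaller by over 1.5 times, and the Asb4 call in CDL day 4 cells was lost (0.25).

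**Figure D4:**
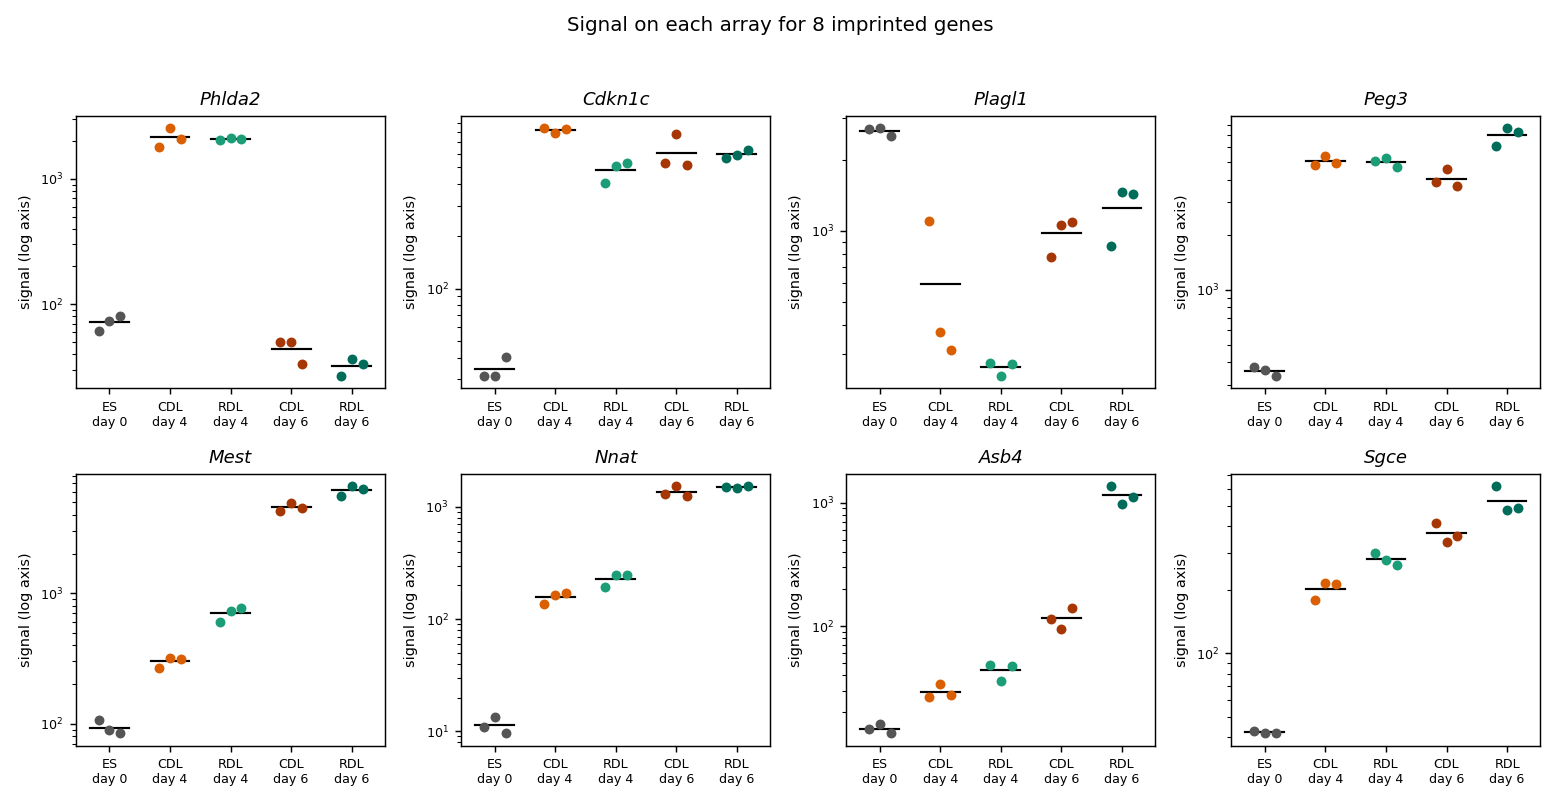
Signal on a log axis in the 5 groups for 8 imprinted genes, with 1 point per array in replicate order and a bar at the group mean; each panel has its own scale. Phlda2 peaks at day 4, Plagl1 is highest in ES cells with CDL day 4 replicate 1 at 1099 above its mates, Cdkn1c and Peg3 are high in all differentiated groups, and Mest, Nnat, Asb4 and Sgce are highest at day 6.

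The media differed little for most of these genes at day 4 and for more of them at day 6. At day 4, 1 of the 30 was higher in CDL than in RDL cells and 3 were lower (13.3%), beside 4.41% of all genes called, 2.9% higher and 1.52% lower. Mest was lower in CDL day 4 cells, by -1.20 ± 0.12 (adjusted p = 1.94e-05), with 267, 318 and 315 in CDL against 607, 735 and 775 in RDL cells. Cdkn1c was higher in CDL, by 0.76 ± 0.15 (adjusted p = 0.00594), with 839, 783 and 835 in CDL against 407, 510 and 531 in RDL cells. Nnat (-0.50 ± 0.12) and Sgce (-0.44 ± 0.12) were lower with adjusted p of 0.0244 and 0.0465. The Nnat call was lost without CDL day 4 replicate 1 or 2 or RDL day 4 replicate 2 or 3, and the Sgce call when any 1 of the 6 arrays was left out. Without CDL day 4 replicate 1, 2 genes were higher in CDL, Nap1l5 having joined at 0.64, and 1 was lower. Plagl1 differed by 0.91 ± 0.33 (adjusted p = 0.17), and by 0.35 without that array. Without CDL day 4 replicate 3, Plagl1 passed, at 1.24, and 2 genes were higher in CDL. The shares over all genes were not counted with arrays left out. Paraxial mesoderm markers moved with the medium at day 4: of 10, 6 were lower and 1 higher in CDL than in RDL cells, and their sum was 3886 to 5685 in CDL and 6074 to 6896 in RDL cells, with CDL day 4 replicate 1 the lowest. Their part in the imprinted differences was not tested.

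At day 6, 8 of the 30 genes were lower in CDL than in RDL cells and 1 was higher (30%), beside 7.61% of all genes called, 3.94% lower and 3.68% higher. The median difference was -0.26, beside 0 over all genes. Asb4 had the largest decrease in CDL day 6 cells of all 12398 genes tested, at -3.18 ± 0.15 (adjusted p = 2.26e-09), with 115, 94.2 and 141 in CDL against 1371, 976 and 1121 in RDL cells. Dlk1 stood at rank 10 in that order, at -2.06 ± 0.26 (adjusted p = 8.21e-05), with 216, 374 and 255 in CDL against 741, 1511 and 1476 in RDL cells. For both genes each CDL array lay below each RDL array.

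Peg3 (-0.79 ± 0.09) and Ndn (-0.65 ± 0.09) were also lower in CDL day 6 cells, with adjusted p of 4.77e-05 and 0.000289. Peg10 (-0.97 ± 0.27), Slc38a4 (-0.50 ± 0.12), Sgce (-0.49 ± 0.12) and Mest (-0.43 ± 0.12) passed with adjusted p between 0.016 and 0.0383, and each lost its call when 1 of several arrays was left out. Peg10 did so without any CDL day 6 array and without RDL day 6 replicate 2 or 3, Slc38a4 without CDL day 6 replicate 2 or RDL day 6 replicate 3, Sgce without CDL day 6 replicate 2 or 3, and Mest without CDL day 6 replicate 1 or 3 or RDL day 6 replicate 2 or 3. Nap1l5 alone was higher in CDL, by 0.85 ± 0.17 (adjusted p = 0.00388), with means of 108 ± 23.4 in CDL and 53.7 ± 3.27 in RDL cells (SD, n = 3 each).

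Meg3, Rian and Mirg differed between the media at day 6 by -0.73, -0.82 and -0.72, with adjusted p of 0.0832, 0.0713 and 0.0661. The 3 other probe sets of Rian passed, at -0.98, -0.77 and -0.94. Without RDL day 6 replicate 1, Meg3 (-0.88), Rian (-1.15) and Mirg (-0.99) passed, as did Ppp1r9a (-0.42) and Grb10 (-0.25), and 13 genes were lower in CDL in place of 8. Without CDL day 6 replicate 2, Meg3 (-0.91) and Mirg (-0.92) passed as well. Without RDL day 6 replicate 3 or CDL day 6 replicate 3 the count was 5. The shares over all genes were not counted with arrays left out, so these counts have no background beside them. With replicate number as a block, Rian and Mirg also passed.

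Cell type markers moved with the medium at day 6. The sum over the 10 paraxial mesoderm markers was 4349 to 6767 in CDL and 2833 to 4192 in RDL cells, and 3 were higher in CDL. The sum over 10 fibroblast markers, a list that includes collagens shared with somite-derived mesenchyme, was 6238 to 8271 in CDL and 8487 to 11672 in RDL day 6 cells, against 308 to 316 in ES cells. Of those 10 genes, 5 were lower in CDL than in RDL cells. The sum over 6 endoderm markers was 240 to 304 in CDL and 467 to 559 in RDL day 6 cells. Sox17 averaged 26.3 in CDL and 95.5 in RDL cells, while Afp and Ttr did not exceed a mean of 55.6. The sum over 7 trophoblast markers was 854 to 1120 in CDL and 1509 to 1795 in RDL cells, and that over 7 endothelial and blood markers 202 to 234 in CDL and 290 to 321 in RDL cells. The part of these cells in the imprinted differences was not tested.

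**Figure D5:**
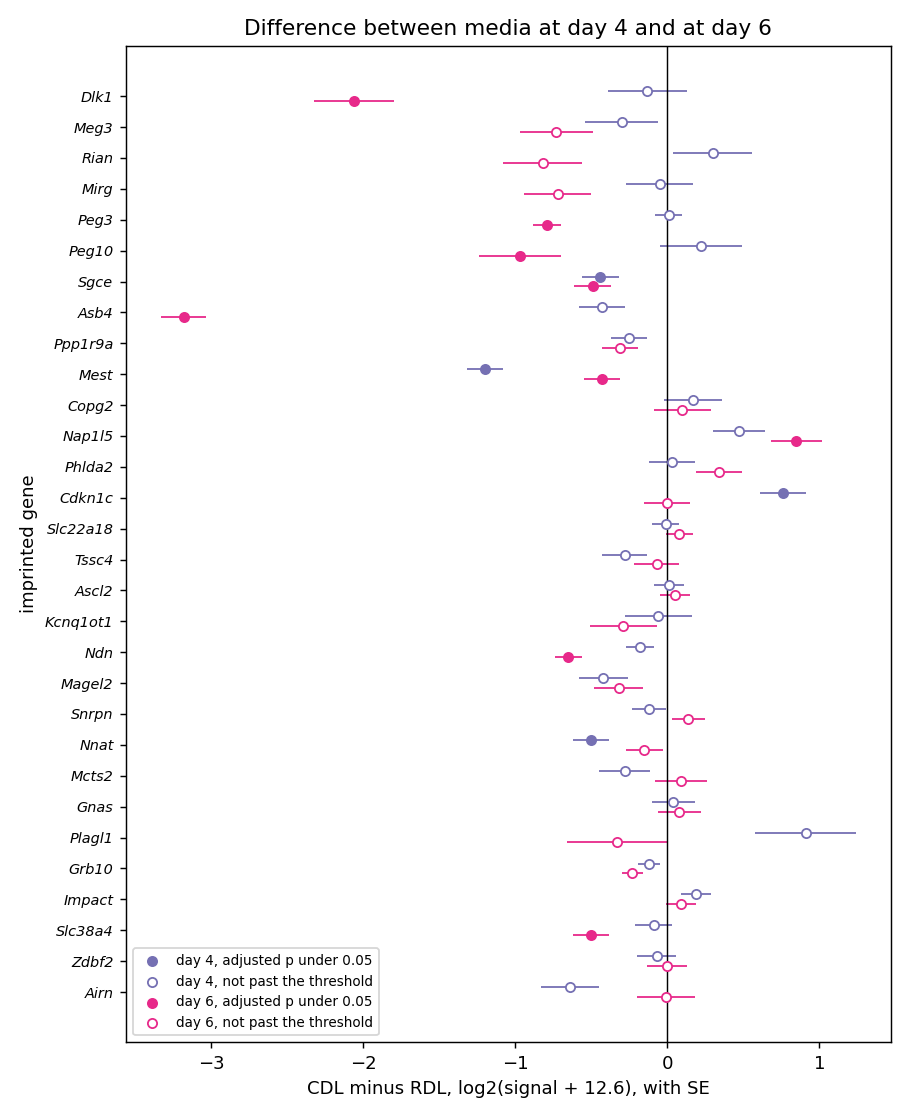
Points are the CDL minus RDL difference in log2(signal + 12.6) of each tested imprinted gene at day 4 and at day 6, with bars of 1 standard error and filled points where the adjusted p was under 0.05. Asb4 and Dlk1 reach -3.18 and -2.06 at day 6 and lie at -0.43 and -0.13 at day 4, while Mest is further from 0 at day 4.

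The difference between media changed from day 4 to day 6 for 5 of the 30 genes (16.7%), beside 5.39% of all genes, 2.31% upward and 3.08% downward, in this test of the interaction of medium and day. It was more negative at day 6 for Asb4 (-2.75 ± 0.21, adjusted p = 1.61e-06), Dlk1 (-1.93 ± 0.37, adjusted p = 0.00469), Peg3 (-0.81 ± 0.13, adjusted p = 0.00175) and Cdkn1c (-0.75 ± 0.21, adjusted p = 0.0474). It was less negative for Mest (0.76 ± 0.16, adjusted p = 0.0102). The Cdkn1c call was lost when any 1 array of the 4 groups was left out, except RDL day 6 replicate 1 and CDL day 6 replicate 2. Without RDL day 6 replicate 1, 8 genes were more negative, Rian (-1.45), Peg10 (-1.65), Mirg (-0.94) and Ndn (-0.50) having passed, and 2 were less negative, Mcts2 having joined at 0.60. With the block, 7 genes were more negative. The shares over all genes were not counted in these settings. Of the 10 paraxial mesoderm markers, 7 changed upward in the interaction and 0 downward, and of the 10 fibroblast markers 3 changed downward. Their part in the imprinted interactions was not tested. Because day 6 cells were another line sorted on another reporter, a change of the medium effect with time and a difference between the lines cannot be told apart.

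Day 6 cells differed from day 4 cells in more imprinted genes upward than downward. In CDL, 11 of the 30 were higher and 6 lower at day 6, beside 39.4% of all genes called, 17.4% higher and 22% lower. In RDL, 16 were higher and 3 lower, beside 31% called, 13.8% higher and 17.2% lower. The median difference was 0.25 in CDL and 0.51 in RDL, beside -0.02 over all genes in both. The fibroblast marker sum was 6238 to 11672 at day 6 and 1122 to 1391 at day 4, and the paraxial mesoderm sum was 2833 to 6767 at day 6 and 3886 to 6896 at day 4. The paraxial sum held moves in both directions. Of its 10 markers, 4 were higher and 5 lower at day 6 in CDL, and 2 were higher and 6 lower in RDL. The part of these markers in the imprinted differences was not tested.

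Phlda2 had the largest decrease from day 4 to day 6 of all genes tested in both media, -5.25 ± 0.15 in CDL and -5.56 ± 0.15 in RDL, with adjusted p of 5.28e-13 and 3.63e-13. The 6 arrays at day 6 lay between 26.8 and 49.7, against 1807 to 2542 on the 6 arrays at day 4. Magel2 (-0.51 and -0.60) and Impact (-0.56 and -0.45) were also lower at day 6 in CDL and in RDL. Peg10 (-1.03 ± 0.27), Cdkn1c (-0.45 ± 0.15) and Peg3 (-0.32 ± 0.09) were lower at day 6 in CDL, while in RDL the values were 0.16, 0.30 and 0.48, of which Peg3 passed. Without RDL day 6 replicate 1, Peg10 in RDL was 0.62 and passed, as did Zdbf2, at 0.43 against 0.27 with it. In that setting 18 genes were higher at day 6 in place of 16, and the share over all genes was not counted.

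The largest increases at day 6 were those of Mest in CDL (3.88 ± 0.12) and Asb4 in RDL (4.36 ± 0.15). Nnat rose by 3.02 in CDL and 2.67 in RDL, Dlk1 by 1.5 and 3.43, and Airn by 1.71 and 1.08. Asb4 rose by 1.61 in CDL and Mest by 3.11 in RDL. Sgce, Ppp1r9a, Grb10 and Mcts2 rose by between 0.69 and 1.3 in both media. Plagl1 rose by 0.92 ± 0.33 in CDL and 2.16 ± 0.33 in RDL, and by 1.47 in CDL without CDL day 4 replicate 1.

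Several day 6 against day 4 calls rested on single arrays. In CDL, Meg3 (0.64) lost its call without CDL day 4 replicate 1, where it was 0.42, and without CDL day 6 replicate 2 or 3. Plagl1 lost it without replicate 2 or 3 of either CDL group, with a lowest value of 0.58. Cdkn1c lost its call without CDL day 4 replicate 1 (-0.43). Cdkn1c, Magel2 and Peg3 lost theirs without CDL day 6 replicate 1 or 3, among others, and without either of these arrays 3 genes were lower in place of 6. In RDL, Rian (0.87) lost its call without RDL day 4 replicate 1 or RDL day 6 replicate 2 or 3. With the mean of probe sets, Meg3 (0.41) and Plagl1 (0.41) in CDL and Impact in CDL (-0.26) and RDL (-0.29) lost their calls.

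Among factors that set or keep imprints, more were lower than higher compared with ES cells. Of a list of 34 such genes, 30 were tested. In CDL day 4 cells 5 rose and 16 fell, in RDL day 4 cells 7 rose and 17 fell, and in each day 6 group 6 rose and 19 fell. Those called were 70%, 80%, 83.3% and 83.3% of the 30, beside 56.2%, 57.1%, 61.1% and 61.6% of all genes, of which 29.6%, 29.5%, 33.3% and 33.3% were lower. Dnmt3l, the cofactor of the de novo DNA methyltransferases, averaged 451 ± 19.7 in ES cells, 46.6 ± 47.5 in CDL day 4, 20.2 ± 1.35 in RDL day 4, 17.5 ± 1.12 in CDL day 6 and 18.5 ± 1.19 in RDL day 6 cells (SD, n = 3 each). The wide SD of CDL day 4 came from replicate 1, at 101. Zfp42, Dppa3, Tet2 and Khdc3 also fell in all 4 comparisons, by at least 2.69, and Aff3, which binds imprinting control regions, rose by between 1.41 and 3.48. In the comparisons of the media 0 of the 30 passed at day 4 and 0 at day 6 in limma, with 3 and 2 at an unadjusted p under 0.05. The shares over all genes, 4.41% and 7.61%, are small beside a list of this length, so the counts of 0 lie near the background.

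Of 48 further imprinted genes, 30 were tested, and their rises and falls were near to even in number. In CDL day 4 cells 10 rose and 9 fell, and in RDL day 4 cells 10 rose and 11 fell. In CDL day 6 cells 12 rose and 11 fell, and in RDL day 6 cells 12 rose and 9 fell. The median differences from ES cells were -0.01, 0.07, 0.01 and 0.06 in that order. The shares called were 63.3%, 70%, 76.7% and 70%, beside 56.2%, 57.1%, 61.1% and 61.6% of all genes. Igf2, the insulin-like growth factor 2 gene, had the largest increase, with means of 40.5 ± 3.89 in ES cells, 2262 ± 463 in CDL day 4, 4725 ± 363 in RDL day 4, 8460 ± 991 in CDL day 6 and 9823 ± 722 in RDL day 6 cells (SD, n = 3 each). At day 4 it was lower in CDL than in RDL by -1.08 ± 0.13 (adjusted p = 0.000126). Over this list of 30 tested genes, 3 were higher and 1 was lower in CDL than in RDL at day 4. At day 6, 4 were higher and 0 lower. The share called was 13.3% at each day, beside 4.41% and 7.61% of all genes. Cobl, Ddc, Jade1 and Sfmbt2 fell in all 4 comparisons with ES cells, and Pon2 rose. The difference between these genes and the 30 tested members was not tested, and both lists were written with earlier results of these data known.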

How the data were processed

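RNA of 15 samples was labelled in 2 amplification cycles and hybridised to Affymetrix mouse arrays, per the labels' protocols. The deposited intensity values, 1 per probe set on a linear scale, were made by the authors with MAS5, per the submitters' processing notes. Its version and the genome build are not given in the sources used here. Of 45101 probe sets, 34945 carried 1 gene symbol in the platform annotation, 932 several and 9160 none, and 64 controls were left out. Where a gene had several single-symbol probe sets, the one with the highest mean stood for it. Of 18193 genes, 12398 above the array median on at least 3 arrays were tested.

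A constant of 12.6, the median over arrays of the 25th percentile, was added before taking log2. One model with 5 group means took in the 15 arrays, using limma 3.58.1 under R 4.3.3 (eBayes with an intensity trend), with Benjamini-Hochberg adjustment over all genes tested. The 9 comparisons were each differentiated group against ES cells, CDL against RDL at each day, the later day against the earlier within each medium, and the medium by day interaction. Background shares are percentages of all genes tested that passed in this model, and were not counted for the alternative settings. Checked on simulated data with independent noise, the fit recovered the changes put in. The simulation held no outlying array and no effect shared by replicate number, so it does not cover data with these features. Replicates are biological per the labels, which do not say whether they came from separate cultures, so p-values measure the spread between these samples.

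All 35 members are named. From the lists of further imprinted genes and of factors that keep imprints, the called members with the greatest differences were named, at most 6 a list. Members, lists and parental classes were chosen with earlier results of these data known. Replicate numbers were checked for pairing through residuals. Between RDL day 6 and RDL day 4, arrays of one number had correlations of 0.22 to 0.28, and between CDL day 6 and RDL day 4 of 0.11 to 0.28. In the other 8 pairs of groups at least 1 such correlation was not above 0.1. Among those 8, CDL day 6 and RDL day 6 had the largest values, 0.61 and 0.59 for replicates 1 and 2, with -0.24 for replicate 3. In every other pair of differentiated groups, each array of 1 group correlated best with the array of its own number in the other. The main model did not use replicate number, and the block among the alternatives did. The alternatives were other constants, filters, probe set rules and normalization, separate fits, no trend, a replicate block and left-out arrays. Figures were drawn with matplotlib.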

Additional observations from a re-analysis of the deposited data

Results flagged for a closer look

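The CDL minus RDL difference changed between day 4 and day 6, by the test of the interaction of medium and day, for 5 imprinted genes. The change was -2.75 on the log2 scale for Asb4, which averaged 117 in CDL and 1156 in RDL cells at day 6, against 29.4 and 44.0 at day 4. It was -1.93 for Dlk1, -0.81 for Peg3 and -0.75 for Cdkn1c. It was 0.76 for Mest, where the gap between the media was wider at day 4.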

How the results depend on the processing

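Over 28 settings, the 153 calls of imprinted genes kept direction and side of the threshold in 2618 of 2732 runs and lost the call in 114, with 129 calls kept in every setting. With the mean of probe sets, 42 of 99 called differences from ES cells and 13 of the 54 other calls were smaller by over 1.5 times. A single value turned round: Rian in day 6 against day 4 in CDL was 0.31 with the mean of probe sets (limma, adjusted p = 0.0165), against -0.24 without a call, and the cause was not tested. With the filter at the 75th percentile, which tests fewer genes, 1 imprinted gene was lower in CDL day 4 and 1 in RDL day 4 than in ES cells, and 0 were higher in CDL than in RDL at day 6. With only the groups compared in the fit, 1 was lower in CDL at day 4 and 5 at day 6. With the replicate block, 7 were more negative in the interaction. It lost no call, and beside the calls of Rian and Mirg at day 6 it added Slc38a4 in CDL day 4 against ES cells and Snrpn in day 6 against day 4 in CDL. Without both arrays that stood apart, 2 were higher and 1 lower in CDL at day 4, 15 were lower in CDL at day 6, and 9 were more negative in the interaction. Leaving out 1 array at a time gave 1 to 2 higher and 1 to 3 lower in CDL at day 4, 5 to 13 lower at day 6, 3 to 6 lower at day 6 than at day 4 in CDL, and in the interaction 1 to 2 less negative and 3 to 8 more negative. The shares over all genes were not counted in any of these settings, so their counts have no background beside them. The settings without both day 6 arrays numbered 1, and with the block in only the RDL groups, were chosen after seeing the data. Dim genes (Peg10, Ascl2, Snrpn) and the 3 arrays per group limit the precision.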

Other observations

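A few values fell outside the comparisons. The 6 probe sets that carry the symbols Snurf and Snrpn together did not move alike. The brightest averaged 1228 ± 30.9 in ES cells, 1435 ± 23.3 in CDL day 4, 1212 ± 85.6 in RDL day 4, 1473 ± 173 in CDL day 6 and 1459 ± 78.8 in RDL day 6 cells (SD, n = 3 each). Another averaged 618 ± 22.9 in RDL day 6 cells and 824 ± 31.9 in ES cells (SD, n = 3 each), with no overlap. None of them was tested. A probe set shared by Airn and Igf2r averaged between 22.4 and 24.8 in the 5 groups.

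RDL day 6 cells held the highest mean of 16 of the 30 tested imprinted genes, CDL day 6 cells that of 6, CDL day 4 cells that of 4, ES cells that of 3 and RDL day 4 cells that of 1. Both Usp29 and Zim1, below the filter, were also highest in RDL day 6 cells, at 29.4 ± 0.309 and 29.7 ± 0.769, against 16.6 ± 0.26 and 20.2 ± 1.91 in CDL day 6 cells (SD, n = 3 each). Neither was tested.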
